A study of Mus musculus with 15 samples.

Results

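The CC chemokine genes described here are Ccl2, Ccl7, Ccl12, Ccl3, Ccl4, Ccl5, Ccl6, Ccl9, Ccl17 and Ccl22, 10 of the 22180 genes that had a probe set with a single symbol on the arrays. The rule that picks them goes by name and uses no measured value, though earlier results of these data were known when it was set. Each gene was represented by 1 probe set. The 15 arrays carried RNA of RAW264.7 cells, an established macrophage line from mouse, in 5 groups of 3. Cells received vehicle (0.1% ethanol) and no lipopolysaccharide (LPS), or 1.0 µg/mL LPS after 30 min of preincubation. That preincubation held vehicle, 13-HDHEA at 5.0 µM, 16-HDHEA at 5.0 µM, or the pair at 2.5 µM each. Every group, including the cells without LPS, carried 0.1% ethanol, and the cells were harvested after 24 h. The HDHEAs are hydroxylated ethanolamides of docosahexaenoic acid, an omega-3 fatty acid, and the numbers in their names give the carbon that bears the hydroxyl group. The replicate number of an array marks 1 of 3 experiments, so each experiment holds 1 array of every group. All cells were of this 1 line.

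CC chemokines are small secreted proteins, named for a pair of adjacent cysteines, that draw leukocytes along a gradient through G protein-coupled receptors. Macrophages release many of them once LPS is sensed by Toll-like receptor 4, whose signals reach NF-kB and the interferon regulatory factors. They differ in whom they attract: Ccl2, Ccl7 and Ccl12 bind Ccr2 and call monocytes, Ccl3, Ccl4 and Ccl5 call macrophages and T cells, Ccl6 and Ccl9 draw mainly myeloid cells, and Ccl17 and Ccl22 bind Ccr4 on T helper 2 and regulatory T cells. In the RefSeq gene order of GRCm38.p6, Ccl2 and Ccl7 neighbour each other on chromosome 11, where Ccl12 lies between Ccl11 and Ccl8. Elsewhere on chromosome 11, Ccl5, Ccl9, Ccl6, Ccl3 and Ccl4 follow one another, while Ccl22 and Ccl17 lie on chromosome 8 with Cx3cl1 between them.

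Values are log2 expression after robust multi-array averaging (RMA), a difference of 1 being a doubling. A gene was tested where it exceeded the 40th percentile of its array in at least 3 arrays, and all 10 chemokine genes did so on all 15 arrays. Differences, standard errors (SE), 95% intervals and two-sided p-values come from limma, with Benjamini-Hochberg adjustment over the 15468 genes tested and calls at an adjusted p under 0.05. Precision is limited by there being 3 arrays per group. In bulk RNA such as this, fewer expressing cells and less RNA per cell cannot be told apart. Array medians lay between 3.62 and 3.69, and arrays of a group correlated at 0.984 to 0.987 over all probe sets. For the macrophage label 10 markers were listed, of which 9 had a probe set, and all 9 exceeded the 40th percentile on every array. Their summed linear level was 19078 to 20888 without LPS and 21213 to 23207 with LPS and vehicle. Exceeding that percentile does not tell cell types apart, since all 8 epithelial and endothelial markers did so on all 3 arrays without LPS.

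The first comparison asked what LPS did to the CC chemokine transcripts with vehicle on both sides. Ccl5 rose 52.7-fold, Ccl7 28.5-fold and Ccl22 17.1-fold, while Ccl4, Ccl2 and Ccl12 rose 4.09-fold, 4.01-fold and 3.27-fold. Ccl3, Ccl6 and Ccl9 rose by 2.01-fold or less, and Ccl17, 2.38-fold higher, did not pass. In all, 9 of the 10 genes were called higher and 0 lower, where 29.8% of all tested genes were called, 13.5% higher and 16.3% lower. Over all genes that is 2089 higher and 2527 lower, or 2534 and 2082 with each array centred on its median, under which the chemokine count was again 9. The same 9 had an unadjusted p under 0.05 in limma, as any called gene must, and so did 5850 of all tested genes. The median log2 difference was 1.86 for the 10 genes and 0.00 for all tested genes. For all 10 genes the values of these groups did not overlap, as for 41.2% of the tested genes.

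**Figure D1:**
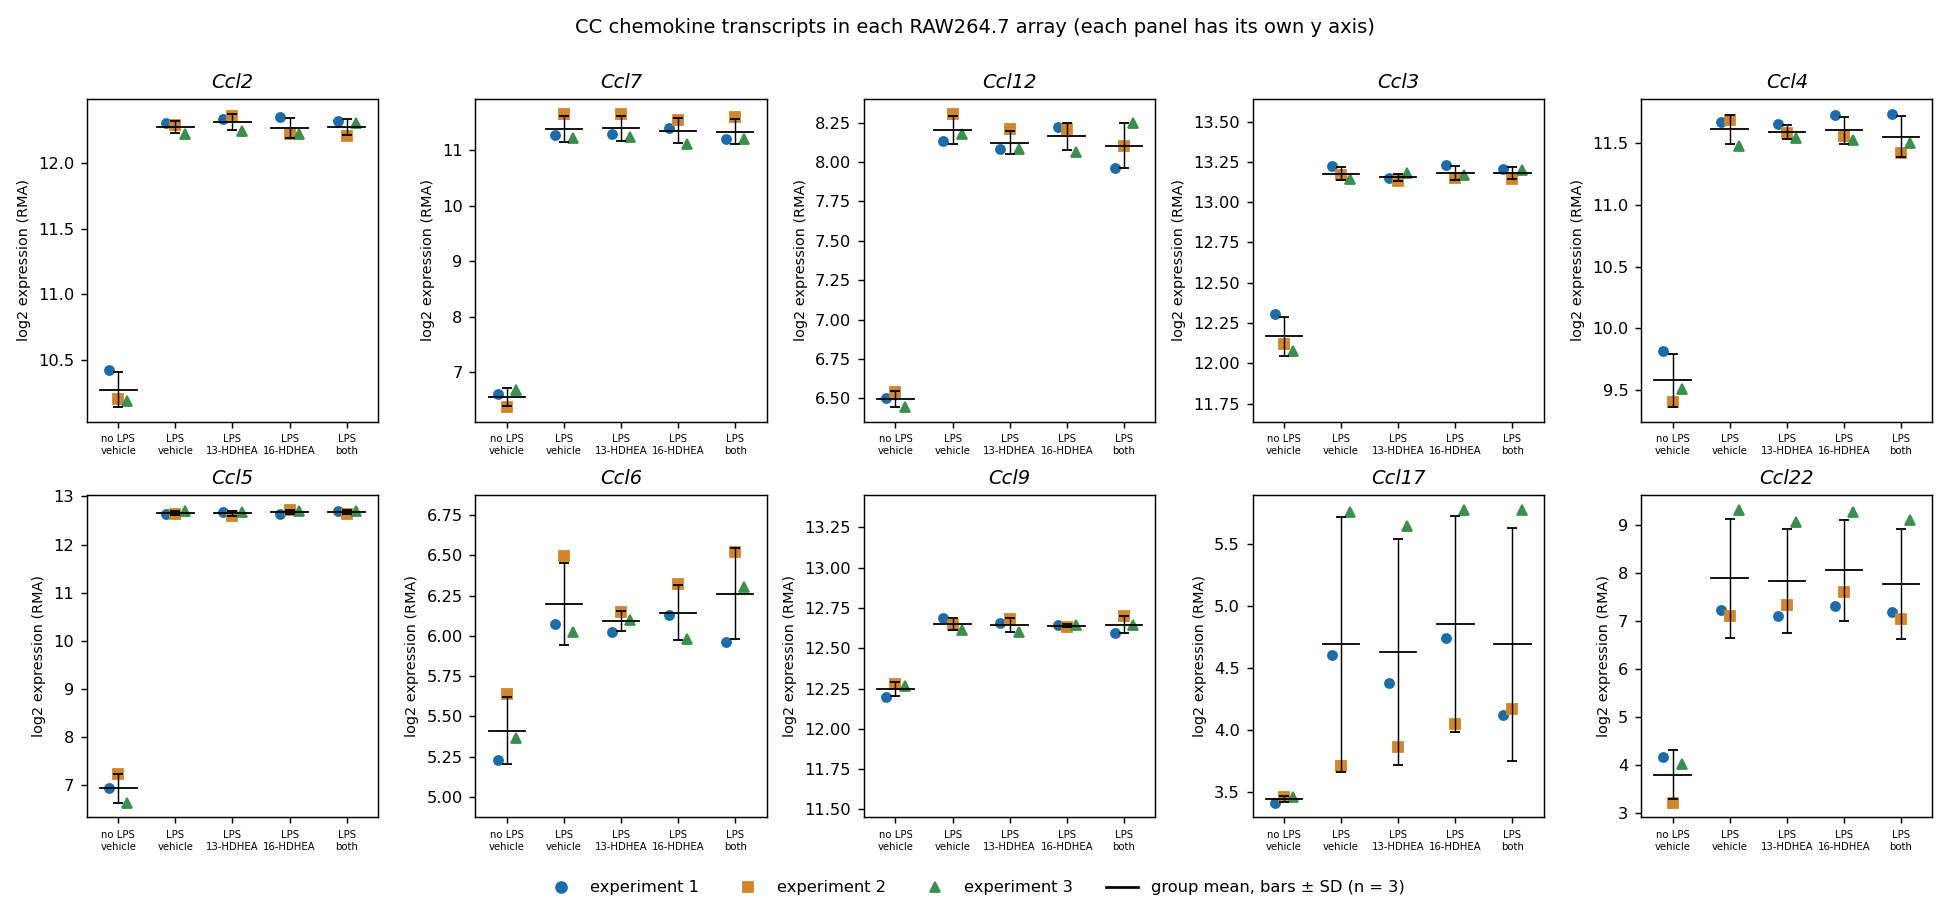
Log2 expression of each CC chemokine gene (y axis, own scale in each panel) in the 5 groups (x axis), with 1 point per array shaped and coloured by experiment, and lines and bars for the group mean ± SD (n = 3). The group without LPS is lowest in every panel, the 4 groups with LPS overlap, and for Ccl17 and Ccl22 experiment 3 lies above the others in each group with LPS.

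Among the monocyte attractants, Ccl7 had the largest difference. It measured 6.60, 6.37 and 6.68 in experiments 1, 2 and 3 without LPS, and 11.28, 11.65 and 11.22 with LPS and vehicle. Every array with LPS stood far above every array without it, and limma gave a log2 difference of 4.83 (SE 0.162, adjusted p = 9.83e-11, 95% interval 4.48 to 5.18). Ccl2, the gene of monocyte chemoattractant protein 1, was already bright without LPS, at 10.42, 10.20 and 10.19, and reached 12.31, 12.29 and 12.22. Its replicates were close together in both groups, and the difference was 2.01 (SE 0.0818, adjusted p = 7.78e-10). Ccl12, whose product is a second mouse ligand of Ccr2, went from 6.50, 6.54 and 6.45 to 8.13, 8.31 and 8.18, a difference of 1.71 (SE 0.0881, adjusted p = 6.06e-09).

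Of the genes Ccl3, Ccl4 and Ccl5, Ccl5 (RANTES) changed most, and Ccl3 was near the top of the array before LPS was given. Ccl5 measured 6.94, 7.23 and 6.63 without LPS and 12.64, 12.64 and 12.69 with it, a log2 difference in limma of 5.72 (SE 0.114, adjusted p = 2.4e-13, 95% interval 5.48 to 5.97). Without LPS its replicates spread over more of the scale (SD 0.299, n = 3) than with LPS (SD 0.0326). Ccl4 (macrophage inflammatory protein 1 beta) went from 9.82, 9.41 and 9.51 to 11.67, 11.68 and 11.48, a difference of 2.03 (SE 0.116, adjusted p = 1.55e-08). Ccl3 (macrophage inflammatory protein 1 alpha) stood at 12.31, 12.12 and 12.08 without LPS and at 13.22, 13.17 and 13.14 with it, a difference of 1.01 (SE 0.074, adjusted p = 1.75e-07). On the 12 arrays with LPS, between 1 and 4 of the 41345 probe sets were brighter than that of Ccl3. The corresponding counts were 28 to 44 for Ccl5, 29 to 45 for Ccl9 and 60 to 105 for Ccl2. Whether the scale is compressed at this height was not tested.

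Ccl9 and Ccl6 moved least. Ccl9 (macrophage inflammatory protein 1 gamma) measured 12.20, 12.28 and 12.26 without LPS and 12.69, 12.64 and 12.61 with it. The groups were separate although the difference was small, at 0.40 (SE 0.0652, adjusted p = 2.76e-04 in limma, 95% interval 0.26 to 0.54). Ccl6 (C10), a mouse chemokine of macrophages, measured 5.23, 5.64 and 5.37 against 6.07, 6.49 and 6.03, a difference of 0.79 (SE 0.159, adjusted p = 0.00161). Experiment 2 was the highest for Ccl6 in both groups, and the rise within each experiment was 0.84, 0.85 and 0.66.

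The Ccr4 ligands had the widest spread between experiments. Ccl22 (macrophage-derived chemokine) measured 4.16, 3.21 and 4.01 without LPS and 7.24, 7.10 and 9.32 with LPS and vehicle. All 3 experiments rose, by 3.08, 3.89 and 5.31, and limma gave a log2 difference of 4.09 (SE 0.73, adjusted p = 6e-04, 95% interval 2.52 to 5.66). Ccl17 (thymus and activation-regulated chemokine) measured 3.41, 3.45 and 3.46 without LPS and 4.61, 3.70 and 5.76 with it. It was higher with LPS in 3 of 3 experiments, by 1.20, 0.25 and 2.30, and the difference of 1.25 did not pass (SE 0.593, 95% interval -0.02 to 2.53, adjusted p = 0.14). With experiment as a block, which uses the pairing of arrays within an experiment, the same difference of 1.25 passed (SE 0.314, adjusted p = 0.00858), and all 10 chemokine genes were then called higher. Without LPS, Ccl17 and Ccl22 lay on average at percentiles 46.0 and 51.7 of their arrays, so their folds rest on levels close to the filter.

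**Figure D2:**
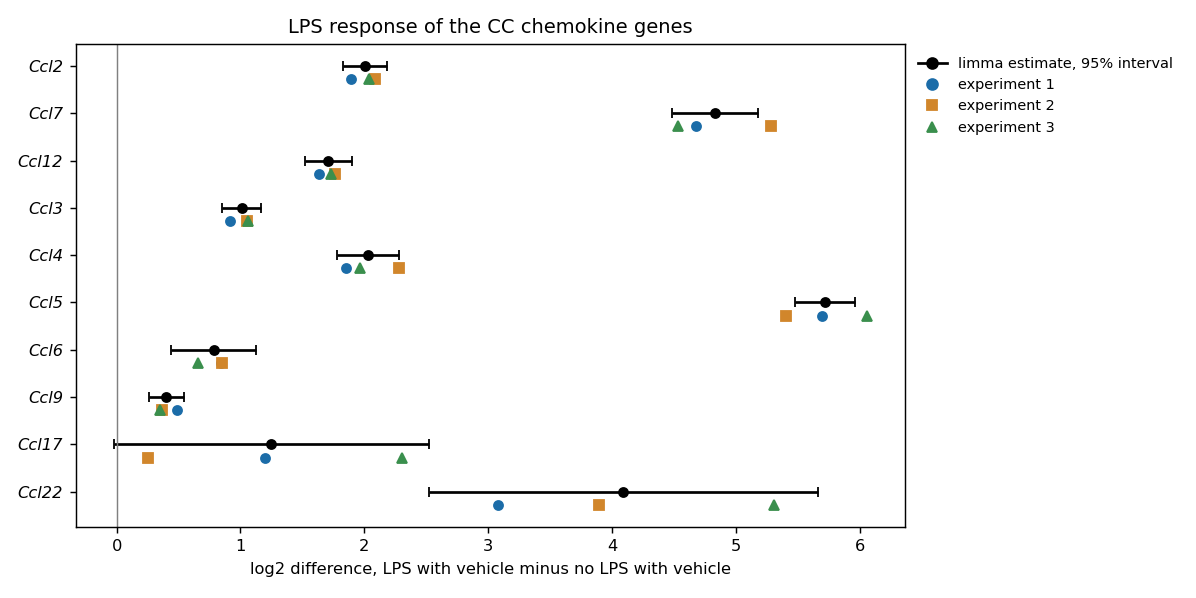
Log2 difference between LPS with vehicle and no LPS with vehicle (x axis) for each CC chemokine gene (y axis), with the limma estimate and its 95% interval in black and the differences within experiments 1, 2 and 3 as coloured points. The estimates run from 0.40 for Ccl9 to 5.72 for Ccl5, and only the interval of Ccl17 reaches below 0.

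Setting all 4 groups with LPS against the cells without it gave nearly the same sizes, since the 12 arrays with LPS lay close together for most of these genes. All 10 chemokine genes were called higher, where 36.4% of all tested genes were called, 16.2% higher and 20.3% lower. Ccl5 stood at 5.73 (SE 0.09), Ccl7 at 4.82 (SE 0.128) and Ccl22 at 4.10 (SE 0.577) on the log2 scale, and Ccl9 at 0.40 (SE 0.0515). Ccl17 passed narrowly, at 1.28 (SE 0.469, adjusted p = 0.047 in limma), and its adjusted p was 0.0013 with experiment as a block. Its call without the block was lost when any 1 of 10 arrays was left out (adjusted p 0.0546 to 0.124): each array without LPS, each replicate 3 array with LPS, and the replicate 1 arrays with vehicle, 13-HDHEA or 16-HDHEA. That call was also lost with no filter on dim genes (adjusted p = 0.0608 in limma), with repeated quantile normalization (0.0527) and with a trended robust variance (0.0699). The difference was 0.77 without experiment 3 (adjusted p = 0.0507) and 1.39 without experiment 1 (0.185).

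The counts for other genes of the chemokine system are read against the 29.8% of all tested genes called with LPS, 13.5% higher and 16.3% lower. Of 7 other CC chemokine genes tested, 1 was called higher and 1 lower, a share near that background, and 2 and 1 with experiment as a block. Ccl24 (eotaxin 2) differed by -1.14 (adjusted p = 0.00106 in limma) and lay at a mean percentile of 39.2 with LPS. The gene called higher was Ccl1, which exceeded the 40th percentile on 0 of 3 arrays without LPS and on 3 of 3 with LPS and vehicle. It was tested almost wholly through the group where it is high, so its call supports nothing. Ccl20 and Ccl25 did not pass, at 0.49 and 0.12. Of 7 CC receptor genes tested, 4 rose and 0 fell. The atypical receptor gene Ccrl2, whose product holds chemerin at the cell surface, rose by 3.53, Ccr10 by 1.09, the Ccl2 receptor gene Ccr2 by 0.39 and the scavenging receptor gene Ackr2 by 0.34. Of 7 genes for chemokine processing and surface binding, 3 rose and 0 fell: the gelatinase gene Mmp9 (3.23), the heparan sulfate synthesis gene Ext1 (1.10) and the syndecan gene Sdc4 (0.73), while Sdc3 stood at -0.11. The median of each list was 0.12, 0.34 and 0.09, beside 0.00 for all tested genes.

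Genes upstream of the chemokines were called in both directions, and the same shares of all tested genes, 13.5% higher and 16.3% lower, apply. Of 15 genes of LPS sensing and signalling, 8 rose and 2 fell, with the adaptor genes Ticam2 (1.79) and Ticam1 (0.61), the kinase gene Irak2 (0.99) and the co-receptor gene Cd14 (0.30). Of 15 transcription factor genes, 9 rose and 2 fell (10 and 3 with experiment as a block), with the interferon regulator gene Irf7 (2.80), Stat2 (1.33) and the NF-kB subunit genes Rel and Nfkb2 (1.07 each). Of 15 genes that restrain chemokine transcripts or signalling, 10 rose and 2 fell (11 and 3 with the block), with the signalling inhibitor gene Socs3 (4.88), Zc3h12a, which encodes a ribonuclease that degrades inflammatory transcripts (3.16), the NF-kB brake gene Tnfaip3 (2.54) and Irak3 (2.49). Among 7 alternative activation genes, which share the interleukin 4 response that can raise Ccl17 and Ccl22, 2 rose and 1 fell. The interleukin 4 receptor gene Il4ra rose by 2.43 and Socs2 by 1.12, Mgl2 fell by 0.46 and Mrc1 stood at -0.39 without passing. The medians of these lists were 0.30, 0.45, 1.33 and -0.02.

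Markers of other cells differed from list to list. None of 7 dendritic cell markers tested was called, and 0 of them had an unadjusted p under 0.05 in limma. On all 3 arrays without LPS, 5 of these 7 markers exceeded the 40th percentile, as did 5 on all 3 with LPS and vehicle. The summed linear level of the 7 was 361.2 to 794.5 without LPS and 423.6 to 672.5 with LPS and vehicle. Cd209a gave most of that sum, at 8.77 ± 0.671 (SD, n = 3) without LPS and 8.81 ± 0.393 with it. The dendritic cell transcription factor gene Zbtb46 measured 3.89 ± 0.155 (SD, n = 3) without LPS and 3.70 ± 0.184 with it, and Flt3 lay below the 40th percentile on all 3 arrays without LPS. These 3 are named outside the rule for named genes, after their values were seen. None of 3 lymphocyte markers tested was called, and their list summed to 43.5 to 49.5 without LPS and 44.8 to 56.6 with it. The neutrophil list summed to 62.0 to 66.5 without LPS and 77.2 to 98.5 with it. The fibroblast list summed to 78.3 to 92.1 and 99.4 to 112.7. Neither overlapped, as held for the values of 41.2% of single tested genes. Of 8 neutrophil markers, 2 exceeded the 40th percentile on all 3 arrays in each of these groups. Of 8 fibroblast markers, 4 did so without LPS and 5 with LPS and vehicle. In each list 1 gene was called, of 4 and 7 tested. The epithelial and endothelial list overlapped, at 150.7 to 178.2 and 168.0 to 183.2. All 8 of its markers exceeded the 40th percentile on all 3 arrays without LPS, and 7 on all 3 with LPS and vehicle. Of the other markers, S100a8 (neutrophils, 1.30), Pdgfra (fibroblasts, 0.96) and Cdh5 (endothelium, 0.42) rose, and Vwf (endothelium) fell by 0.49. Of the macrophage markers, Adgre1 (4.50), Fcgr1 (1.56), Mertk (1.36) and Cd14 rose, and Csf1r fell by 0.24. The part of these in the chemokine differences was not tested.

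The next comparisons asked whether the HDHEAs changed chemokine expression in LPS-activated cells. No CC chemokine gene was called with 13-HDHEA, with 16-HDHEA or with both, and no gene of the 10 had an unadjusted p under 0.05 in limma in any of these. Of all tested genes, 0.00646% were called with 13-HDHEA, 0% with 16-HDHEA and 0% with both, and 660, 460 and 539 genes had an unadjusted p under 0.05. These comparisons share the vehicle arrays. The values of 0 of the 10 genes were separate from those with vehicle in each treatment, where 7.93%, 7.16% and 6.42% of the tested genes were separate with 13-HDHEA, with 16-HDHEA and with both.

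Ccl2 measured 12.34, 12.36 and 12.25 with 13-HDHEA, 12.36, 12.23 and 12.23 with 16-HDHEA, and 12.32, 12.21 and 12.31 with both. All of these overlap the vehicle values, and the differences from vehicle were 0.04 (95% interval -0.13 to 0.22), -0.01 (-0.18 to 0.17) and 0.00 (-0.17 to 0.18). Ccl7 measured 11.30, 11.66 and 11.24, then 11.40, 11.55 and 11.12, then 11.21, 11.60 and 11.21 in the same order, with experiment 2 highest in each group. Ccl12 measured 8.08, 8.21 and 8.08 with 13-HDHEA, 8.22, 8.21 and 8.06 with 16-HDHEA, and 7.96, 8.10 and 8.25 with both. Its difference from vehicle with 13-HDHEA was -0.08 (95% interval -0.27 to 0.11, adjusted p = 1 in limma). Some differences from vehicle had 1 sign in 3 of 3 experiments, none of them called. How often that held over all tested genes was not counted, so these signs are no evidence of an effect. With 13-HDHEA these were Ccl2 (0.04), Ccl7 (0.01) and Ccl12 (-0.08), with 16-HDHEA Ccl17 (0.17), and with both Ccl7 (-0.04) and Ccl22 (-0.11).

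Ccl5 lay between 12.59 and 12.72 on the 12 arrays with LPS, Ccl3 between 13.13 and 13.23, and Ccl9 between 12.59 and 12.70. Ccl4 ranged from 11.42 to 11.73 and Ccl6 from 5.96 to 6.52. No treatment stood apart for any of these. Ccl17 measured 4.38, 3.86 and 5.64 with 13-HDHEA, 4.74, 4.05 and 5.78 with 16-HDHEA, and 4.12, 4.17 and 5.78 with both. Ccl22 measured 7.10, 7.33 and 9.07, then 7.31, 7.60 and 9.27, then 7.19, 7.04 and 9.10 in the same order. In every treatment the third experiment was the highest for both genes. The cells without LPS had the lowest mean of all 10 genes, and in the order of the 4 groups with LPS each neighbour overlapped the next.

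**Figure D3:**
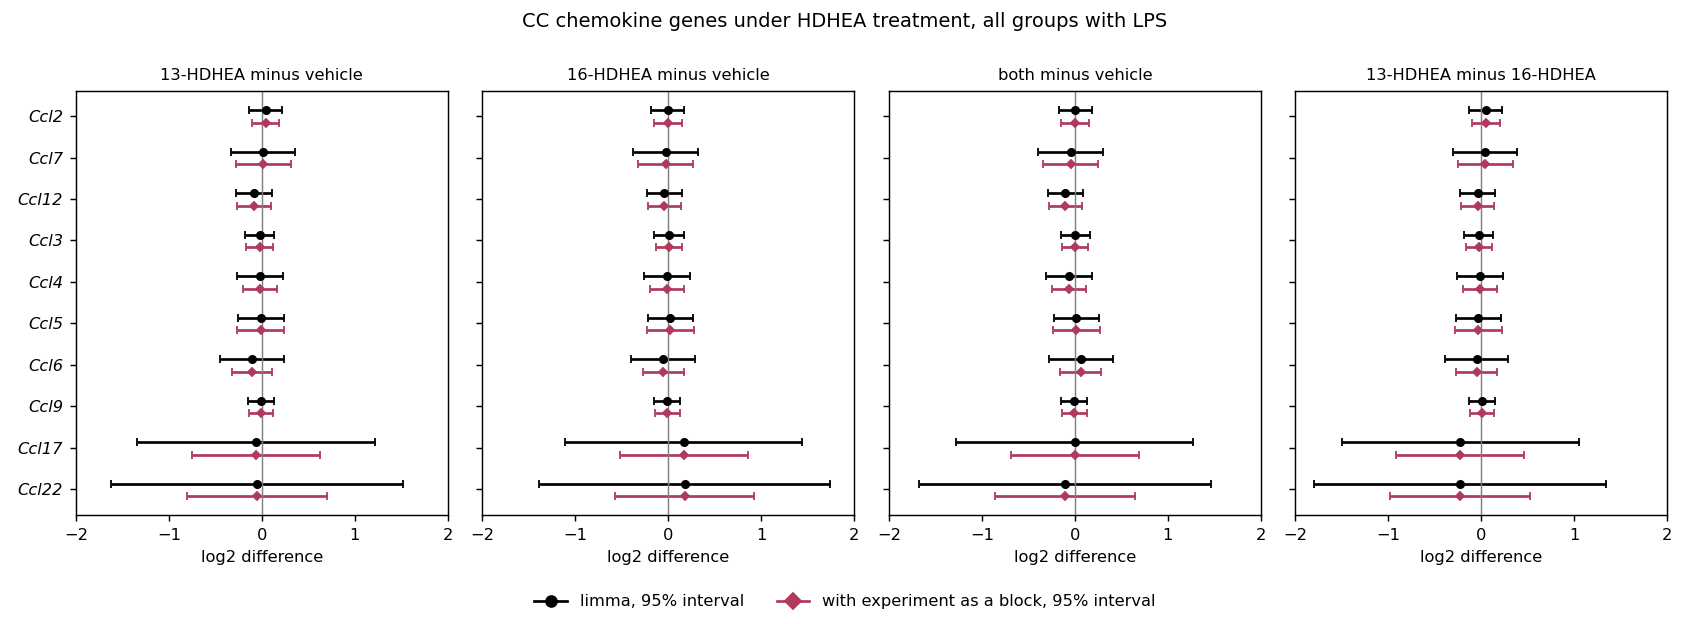
Log2 differences (x axis) for each CC chemokine gene (y axis) in 4 comparisons between groups with LPS, with the limma estimate and 95% interval in black and the fit with experiment as a block in red. Every interval includes 0, and those of Ccl17 and Ccl22 are the widest, up to -1.80 to 1.34 for Ccl22 between 13-HDHEA and 16-HDHEA.

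The intervals state what the fits used here could resolve. For the 8 genes other than Ccl17 and Ccl22, the differences from vehicle lay between -0.11 and 0.04 with 13-HDHEA, between -0.05 and 0.02 with 16-HDHEA, and between -0.10 and 0.06 with both. The widest 95% bounds over these 8 genes were -0.45 and 0.36, -0.40 and 0.32, and -0.39 and 0.41, so that changes beyond 1.36-fold, 1.32-fold and 1.33-fold lay outside every interval. Ccl17 and Ccl22 were far less well resolved in the fit without the block, whose SE include the spread between experiments. Their widest bounds were -1.62 and 1.52 with 13-HDHEA, -1.40 and 1.75 with 16-HDHEA and -1.68 and 1.46 with both, which leaves changes of up to 3.08-fold, 3.35-fold and 3.20-fold inside an interval. With experiment as a block these bounds narrowed to -0.81 and 0.70, -0.58 and 0.93, and -0.86 and 0.69, and again no gene was called. The block fit also used the arrays without LPS, where experiment 3 did not stand apart for Ccl17 and Ccl22. Within an experiment, the SD over the 4 arrays with LPS was 0.0651 to 0.273 for Ccl17 and 0.0897 to 0.256 for Ccl22. Treatments were not compared with the block on the arrays with LPS alone, so these bounds may be wider than the arrays require.

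The isomers 13-HDHEA and 16-HDHEA, both at 5.0 µM, were set against each other for the same 10 genes. None was called, where 0.00646% of all tested genes were, and none had an unadjusted p under 0.05 in limma, as 480 genes did. For the 8 genes the differences (13-HDHEA minus 16-HDHEA) lay between -0.05 and 0.05, with bounds no wider than -0.39 and 0.39. Ccl17 and Ccl22 were each lower with 13-HDHEA in 3 of 3 experiments, by means of 0.23 and 0.23. Within experiments 1, 2 and 3 the differences were -0.36, -0.18 and -0.14 for Ccl17 and -0.22, -0.27 and -0.20 for Ccl22. The share of all tested genes with 1 sign in 3 of 3 experiments was not counted here either. The SE of 0.593 for Ccl17 and 0.73 for Ccl22 include the spread between experiments, and both had an adjusted p of 1 in limma. With experiment as a block the SE were 0.314 and 0.343 and the adjusted p 0.999. That fit also holds the arrays without LPS, and the isomers were not compared with the block on the arrays with LPS alone. A p above the threshold does not show that the isomers act alike.

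Both compounds at 2.5 µM each were compared with the mean of the single treatments at 5.0 µM, and the mean of all 3 HDHEA treatments with vehicle. The first gave differences between -0.04 and 0.14 for the 8 genes, with Ccl17 at -0.05 and Ccl22 at -0.17. The second lay between -0.08 and 0.01 for the 8 genes, with bounds of -0.31 and 0.27, the narrowest of these comparisons. No chemokine gene passed in either, where 0% of all tested genes did and 496 and 586 had an unadjusted p under 0.05 in limma. Of the 73 genes tested in the 7 chemokine pathway lists, 0 were called in each of the 6 comparisons between groups with LPS.

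For Ccl17 and Ccl22 the values differed between experiments. Tested over all 15 arrays with the group held fixed, Ccl22 (adjusted p = 0.0105 in limma), Ccl17 (0.0175) and Ccl6 (0.0496) differed between experiments, 3 of the 10 genes, where 4.84% of all tested genes did. The other 7 did not pass (adjusted p 0.107 to 0.844). Ccl6 was lost without any 1 of 14 arrays (adjusted p 0.0605 to 0.118). The count fell to 1 when replicate 3 of any 1 of the 4 groups with LPS was left out, each of which removed Ccl6 and Ccl17 (Ccl17 adjusted p 0.0531 to 0.0566). On the 12 arrays with LPS alone, Ccl17 and Ccl22 passed again and Ccl7 joined them (adjusted p = 0.0131), while Ccl6 did not pass (0.126). Within groups, the SD of Ccl17 and Ccl22 was larger than that of 99.95% and 99.98% of all tested genes. Ccl9 and Ccl3, at percentiles 0.42 and 3.99, were among the steadiest.

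Ccl22 averaged 7.21 ± 0.0897 (SD, n = 4 arrays with LPS) in experiment 1, 7.27 ± 0.256 in experiment 2 and 9.19 ± 0.123 in experiment 3. Ccl17 averaged 4.46 ± 0.273, 3.95 ± 0.205 and 5.74 ± 0.0651. For both genes the 4 arrays of experiment 3 lay above all 8 others with LPS, a separation found in 3.56% of all tested genes in either direction. Without LPS experiment 3 did not stand apart, with Ccl17 at 3.46 against 3.41 and 3.45, and Ccl22 at 4.01 against 4.16 and 3.21. Experiment 3 was then set against the mean of experiments 1 and 2 over the 12 arrays with LPS. This comparison was chosen because Ccl17 and Ccl22 had been seen to separate there, so their differences restate that observation and carry no test. Ccl22 was 1.95 higher (3.86-fold) and Ccl17 1.53 higher (2.90-fold). Ccl7 was called lower, at -0.26 (adjusted p = 0.0411 in limma), and the remaining chemokine genes did not pass. For other genes limma treats the 4 arrays of an experiment as its replicates, although they come from 1 experiment. Of all tested genes, 2.51% were called, 0.976% higher and 1.53% lower.

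**Figure D4:**
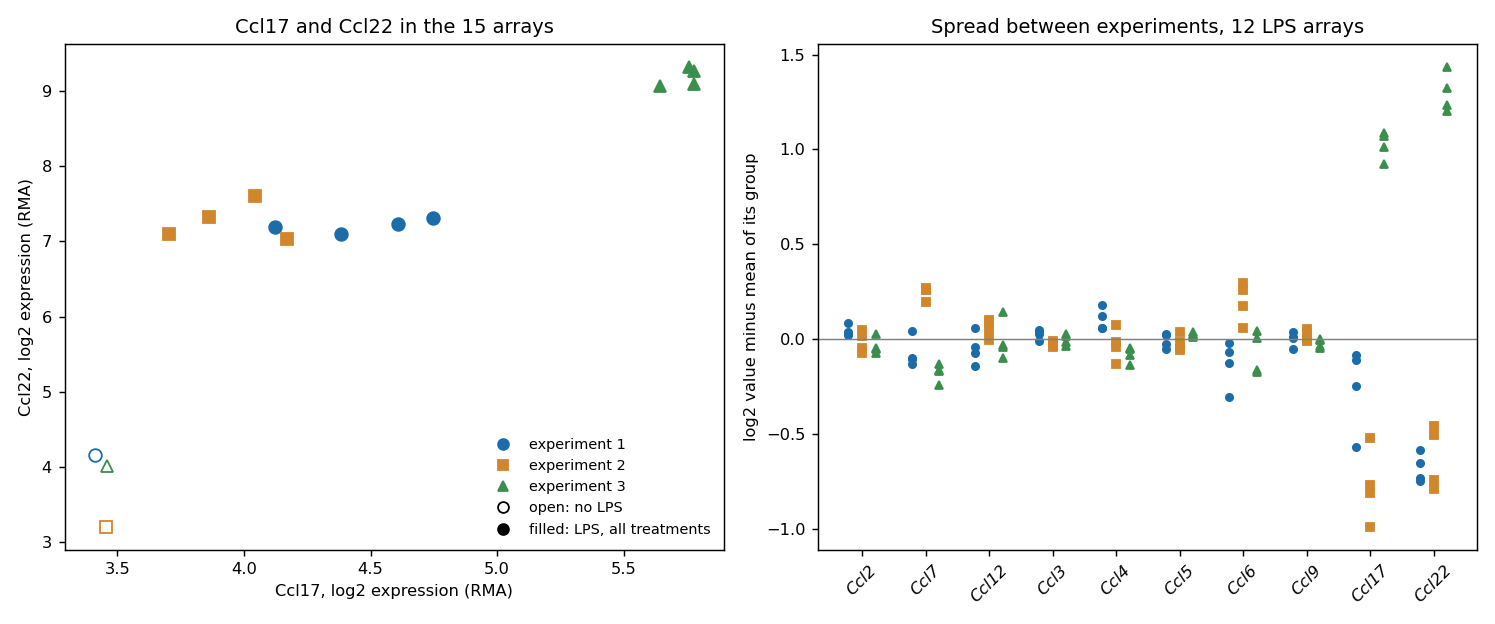
Left, log2 expression of Ccl22 (y axis) against Ccl17 (x axis) in the 15 arrays, with experiments as colours and open symbols for cells without LPS. Right, the value of each CC chemokine gene on the 12 arrays with LPS minus the mean of its group (y axis): the arrays of experiment 3 lie between 0.92 and 1.43 above it for Ccl17 and Ccl22, and the other genes lie between -0.30 and 0.30.

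Cx3cl1, which encodes fractalkine and lies between Ccl22 and Ccl17, differed by 0.19 in experiment 3 (95% interval -0.20 to 0.59, adjusted p = 0.615 in limma). None of the 7 dendritic cell markers, of the 7 alternative activation genes or of the 7 other CC chemokine genes was called there. Of all tested genes 2.51% were, and at that share lists this short would often hold no call. Of the pathway lists, Cebpb and Mmp12 were lower, and of Tnfaip3 and Zfp36, 1 was higher and 1 lower. No gene of the CC receptor or LPS sensing lists was called. Of the macrophage markers Adgre1 was higher, and of the markers of other cells Pdgfra and Vwf were lower. What set experiment 3 apart was not tested.

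RefSeq promoters (GRCm38.p6, 250 bases before the start) were found for 6 of the 10 genes: Ccl12, Ccl3, Ccl6, Ccl9, Ccl17 and Ccl22. Ccl2, Ccl4, Ccl5 and Ccl7 had no entry. The promoters of Ccl17 and Ccl22 are printed because these genes moved together between experiments, and that of Ccl9 because it had the smallest LPS response of the 10 genes. The start used for Ccl17 lies inside its RefSeq gene interval. Capitals mark matches, on either strand, to any of the 7 motifs searched. Ccl22 is at chr8:94745434-94745683 and Ccl17 at chr8:94810203-94810452, both on the plus strand, and Ccl9 at chr11:83578637-83578886 on the minus strand.
Ccl22: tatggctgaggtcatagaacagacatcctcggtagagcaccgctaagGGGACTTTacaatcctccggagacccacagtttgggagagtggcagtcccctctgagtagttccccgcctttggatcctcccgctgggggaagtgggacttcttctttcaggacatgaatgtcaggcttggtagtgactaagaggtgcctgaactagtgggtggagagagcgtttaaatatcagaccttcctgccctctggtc
Ccl17: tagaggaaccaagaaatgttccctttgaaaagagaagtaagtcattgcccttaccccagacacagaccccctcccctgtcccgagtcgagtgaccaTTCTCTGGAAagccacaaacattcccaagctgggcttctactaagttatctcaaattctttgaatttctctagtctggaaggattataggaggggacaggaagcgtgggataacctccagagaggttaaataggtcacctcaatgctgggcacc
Ccl9: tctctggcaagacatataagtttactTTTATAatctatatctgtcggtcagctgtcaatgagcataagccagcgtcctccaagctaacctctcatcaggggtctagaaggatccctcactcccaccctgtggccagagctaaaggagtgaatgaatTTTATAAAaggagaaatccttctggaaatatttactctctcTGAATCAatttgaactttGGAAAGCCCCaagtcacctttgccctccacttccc

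The 7 motifs were chosen with the expression values known, and both strands of 32851 promoters were searched for each. The kappaB motif, which NF-kB binds, was found in 3.9% of them, the shorter GGGACTTT in 1.21%, the interferon response core (GAAA, any 2 bases, GAAA) in 2.98%, the AP-1 site TGANTCA in 6.75%, the STAT6 site (TTC, any 4 bases, GAA) in 5.85%, TATAAA in 12.4% and the cyclic AMP response element TGACGTCA in 1.55%. Ccl22 held GGGACTTT, 203 to 196 bases before the start, and no other match. Ccl17 held 1 STAT6 match, 154 to 145 bases before. The Ccl9 promoter held a kappaB match on the minus strand 35 to 26 bases before the start, an AP-1 match 53 to 47 bases before and 3 TATAAA matches, of which 2 overlap. Ccl12 had TATAAA 31 to 26 bases before, and Ccl3 and Ccl6 had no match. Ccl17 and Ccl22 thus shared none of these motifs in this window. A match is a description of letters, not of binding.

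Genes whose profile over the 15 arrays was most like that of each chemokine were named by Pearson's r. The arrays fall into those with and without LPS, so a high r mostly repeats a shared LPS response. Acod1, which makes itaconate, was nearest to Ccl2 (r = 0.998), and Peli1, a ubiquitin ligase gene, to Ccl7 (0.997) and Ccl12 (0.992). The inducible cyclooxygenase gene Ptgs2 was nearest to Ccl3 (0.997) and Ccl4 (0.996), Il1a to Ccl5 (0.999), Zfp691 to Ccl6 (0.966) and the interferon-induced gene Oasl1 to Ccl9 (0.983). The kynureninase gene Kynu was nearest to Ccl22 (0.979) and the cystatin gene Cst7 to Ccl17 (0.900). Over the 12 arrays with LPS alone, r was 0.947 for Ccl22 and Kynu, 0.887 for Ccl17 and Cst7 and 0.924 for Ccl6 and Zfp691. With Peli1 it was 0.784 for Ccl7 and 0.462 for Ccl12, and with Ptgs2 0.672 for Ccl3 and 0.637 for Ccl4. It was 0.575 for Ccl5 and Il1a, 0.447 for Ccl2 and Acod1 and 0.187 for Ccl9 and Oasl1. These 12 arrays are among the 15 by which the genes were picked. For Ccl17 and Ccl22 experiment 3 lay above the others, so their r rests largely on that 1 experiment.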

How the data were processed

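Total RNA of RAW264.7 cells was labelled with an Affymetrix whole-transcript sense assay, per the labels' protocols. The deposited values are log2 expression for 41345 probe sets on 15 arrays, made with RMA per the submitters' processing notes. The version of RMA, the chip definition and the build are not given here. Because RMA brings the arrays close to one distribution, it can hide a change common to most genes. The deposited values of the arrays still differed slightly in their medians. Sample titles gave the groups and replicates.

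Probe sets with exactly 1 symbol gave 22180 genes, using the probe set with the highest mean where a gene had several. Genes above their array's 40th percentile (3.16 to 3.22) in at least 3 arrays were tested (15468 genes, with 6712 set aside). 1 model of group means over all 15 arrays was fitted in limma 3.58.1 (lmFit, eBayes without trend or robust options, R 4.3.3). It has 10 residual degrees of freedom, plus 3.59 from the prior. The fit with experiment as a replicate block has 8. Replicate numbers pair the arrays, since the labels give each its own experiment identifier. Deviations from group means correlated at 0.0835 to 0.404 over 30 same-numbered pairs, above 0.1 in 28.

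The members, lists, motifs and comparisons were chosen with earlier results of these data known. Named genes are all 10 members, up to 4 genes per pathway list with the smallest p for LPS, cell type markers called where a member was called, and the gene most correlated with each member. The scripts were tested on simulated data. Alternatives were the block, only the arrays compared, other filters, median centring, repeated quantile normalization, a trended robust variance, the mean of all probe sets, and leaving out each array. Leaving out whole experiments and setting experiment 3 against the others were added after the data were seen.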

Additional observations from a re-analysis of the deposited data

How the results depend on the processing

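Of 2290 recomputed member values, 2249 kept their direction and side of the threshold, 37 lost a call, 4 gained one and 0 called values reversed, while 186 of 1585 uncalled values changed sign. The number of chemokine genes called with LPS and vehicle was 9 without any 1 array and 10 with experiment as a replicate block. For all groups with LPS it was 9 to 10, and for the comparisons between groups with LPS it was 0 in each of these fits. The count that differed between experiments ranged from 1 to 3 without any 1 array. The lost calls were those of Ccl17 (all groups with LPS, and experiment) and Ccl6 (experiment), and the gained ones those of Ccl17 with the block, of Ccl7 between experiments on the LPS arrays alone (and on leaving out the cells without LPS of experiment 2) and of Ccl4 between experiments with the trended robust variance (adjusted p = 0.0157 in limma). The cause of these changes was not tested.

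Over all genes, the count that differed between experiments was 749, against 438 without a filter, 1490 with a filter at the 60th percentile, 1782 with the trended robust variance and from 285 to 904 without any 1 array. LPS calls were 2089 higher and 2527 lower, and 2534 higher and 2082 lower with arrays centred on their medians. Repeated quantile normalization gave 2282 higher and 2306 lower. With 13-HDHEA 1 gene passed, 0 with only the groups compared or without experiment 2 or 3, and 2 without vehicle replicate 1. Between the isomers 1 gene passed, and 0 with only the groups compared, without any 1 whole experiment, or without replicate 2 or 3 of 13-HDHEA or of 16-HDHEA. For the gene lists only the block was recomputed, which also moved the macrophage markers from 1 to 2 lower. Only the groups compared gave no separate fit for all groups with LPS, which uses every array.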
